A study of Mus musculus with 18 samples.

Results

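The genes described here build and run the primary cilium. A list of 48 mouse symbols was taken, and a gene on it was used where the array held a probe set with that symbol alone, represented by the brightest such probe set on average. Of the 48 genes, 46 were measured, out of 19938 genes with such a probe set. Talpid3 was found under its RefSeq synonym 2700049A03Rik, and Arl6 and Arl13b, which encode small GTPases of the cilium, had no probe set of their own. No measured value was used to pick a gene, but the list was chosen with earlier results of these data known.

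Tumour RNA from mouse medulloblastomas was labelled and hybridized to Affymetrix Gene ST 1.0 arrays, with 18 arrays in 5 groups. The Ptch tumours were of the subtypes NG (n = 4), GFD (n = 2) and GFI (n = 4). There were also 4 Smo tumours named NG-Smo;Atoh1-CreER, shortened to NG-Smo, and 4 named GFD-Smo;GFAP-cre, shortened to GFD-Smo. The labels name the 3 subtypes by their letters only and give no age, and they do not say which allele of Ptch or Smo the mice carried. Ptch1 is the receptor that restrains Hedgehog signalling and Smo is the transducer that it restrains. Atoh1-CreER is a Cre recombinase driven from a gene of granule neuron progenitors that needs tamoxifen to act, and GFAP-cre is driven from a glial promoter that is also used by neural stem cells of the embryo. Because each Smo subtype had its own Cre driver, subtype and driver cannot be told apart in the Smo tumours. GFI-Ptch replicate 4 was labelled as progressed from another tumour and grown in a female NSG mouse, a host without a working adaptive immune system, and is called the transplanted tumour. All 5 groups are thus models built on the Hedgehog pathway, and no normal cerebellum was analysed here.

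A primary cilium is a single antenna of microtubules that grows from a basal body at the cell surface. Intraflagellar transport (IFT) trains carry cargo along it: the IFT-B complex travels outwards with kinesin-2, and the IFT-A complex returns with cytoplasmic dynein 2. A transition zone at the base acts as a gate, and the BBSome ferries membrane proteins through it. In vertebrates the Hedgehog signal passes through the cilium, where Ptch1 leaves and Smo enters, and granule neuron progenitors need the cilium both to answer Sonic hedgehog and to form tumours when Smo is activated.

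Values are on the log2 scale, and a difference of 1 is a doubling. The 46 genes lay between 6.79 and 11.59, and on no array was one of them under that array's lower quartile of all genes, which was 6.52 to 6.74. Atoh1, which marks granule neuron progenitors, was between 11.78 and 12.81 on every array. In tumour tissue, fewer cells of a type and less RNA per cell cannot be told apart. The transplanted tumour stood apart, with a mean correlation to the other arrays of its group of 0.972 over all genes. The other 17 arrays had 0.983 to 0.997, and NG-Smo replicate 4 (0.985) was the lowest of its group by a small margin. Groups were compared in 1 limma model of all 18 arrays, and called genes are those whose Benjamini-Hochberg p over all 19938 genes was under 0.05. Separate animals are not stated for the replicates, so a p-value speaks of the spread between these samples alone, which may be technical.

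Cilium genes differed little between the subtypes. Over the 18 arrays the range of a gene ran from 0.28 for Kif3b, a motor subunit of kinesin-2, to 1.67 for Ift52, and no group difference reached 1 in any of 7 comparisons. Of the 46 genes, 10 were called in at least 1 comparison and 36 in none. The spread among replicates was small in GFD-Smo, with a median SD of 0.07 over the 46 genes, and larger in NG-Smo, with a median SD of 0.19, beside 0.07 and 0.14 over all genes. It was 0.11 in NG-Ptch, 0.12 in GFD-Ptch and 0.14 in GFI-Ptch.

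**Figure D1:**
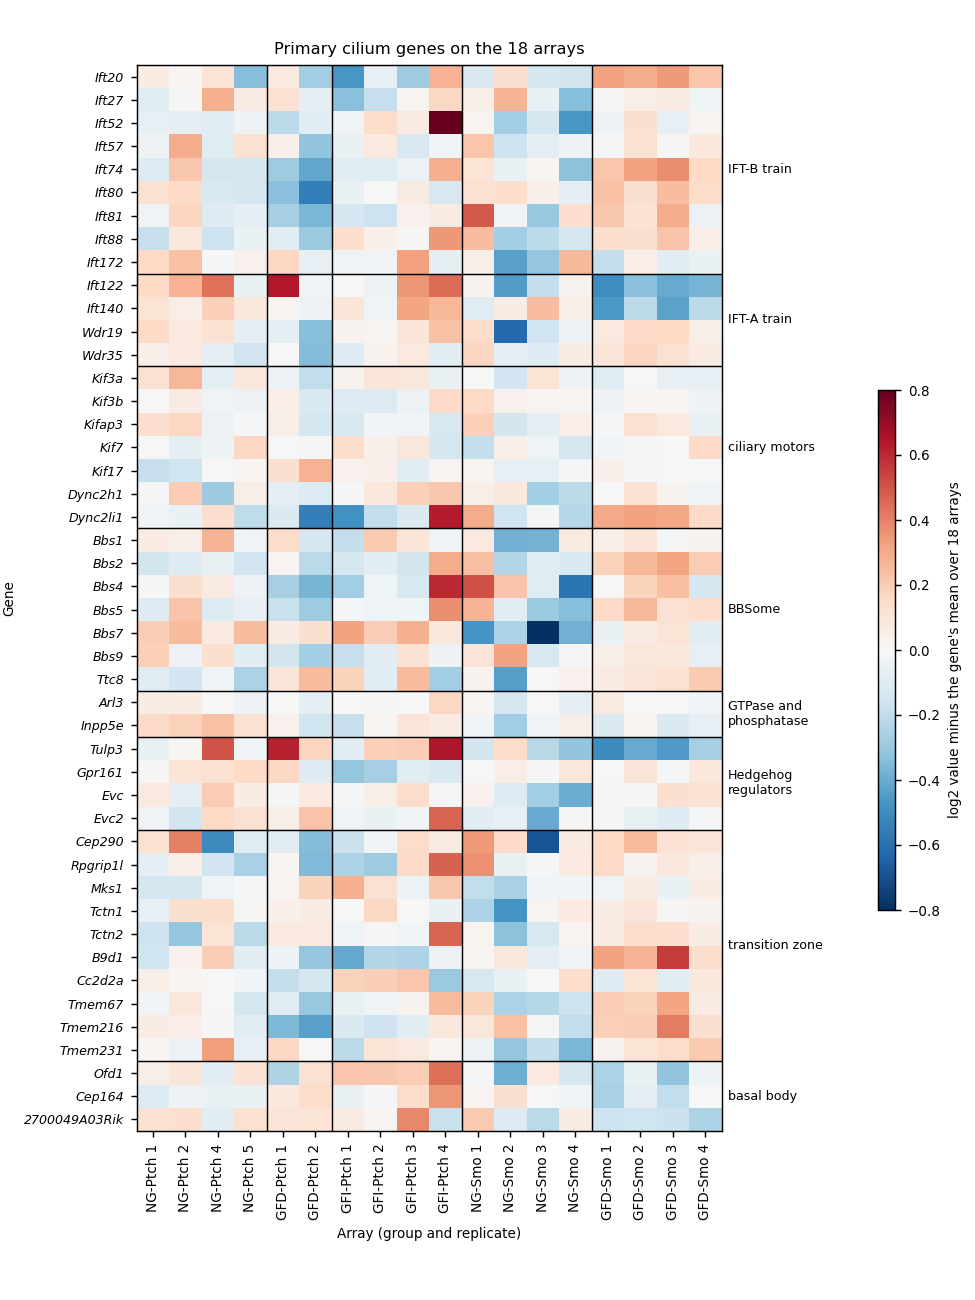
Heat map of the 46 cilium genes (rows, grouped by role) on the 18 arrays (columns, grouped by tumour group). Colour is the log2 value minus the gene's mean over all arrays, red above and blue below, and colours saturate at 0.8. Most cells are pale. The transplanted tumour (GFI-Ptch 4) held the highest value of 14 genes, GFD-Ptch 2 the lowest of 13 and NG-Smo 2 the lowest of 12.

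The GFD tumours of the Smo mice had higher values than the NG tumours for most cilium genes. In GFD-Smo minus NG-Smo, 35 of 46 genes were above 0 and 11 below, with a median of 0.10 beside -0.01 over all genes. Each array was also given the median of the 46 genes after subtracting each gene's mean over all arrays. This array median was 0.02 to 0.11 in GFD-Smo and -0.10 to 0.04 in NG-Smo, so the groups overlapped. Its SD among replicates was 0.06. Only 3 genes were called (6.52% of the 46, against 5.31% of all genes). Bbs7 and Tmem231 rose (2.81% of all genes did) and Ift140 fell (2.49% did). Without the transplanted tumour 7 were called, without NG-Smo replicate 1 there were 8, and without GFD-Smo replicate 1 or replicate 3 there was 1. At an unadjusted p under 0.05 there were 14 genes, 13 of them higher, which is 30.4% of the list beside 15.9% of all genes. The arrays of the 2 groups did not overlap for 7 genes that were higher in GFD-Smo (15.2%, against 5.99% of all genes) and for 2 that were lower (4.35%, against 6.59%).

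The GFD tumours of the Ptch mice leaned the other way, mostly through replicate 2. The array median was 0.01 on GFD-Ptch replicate 1, -0.13 on replicate 2 and -0.05 to 0.06 in NG-Ptch. In GFD-Ptch minus NG-Ptch, 11 of 46 genes were above 0 and 35 below, with a median of -0.08 beside 0.04 over all genes. None was called by limma (against 0.0100% of all genes), and 8 had an unadjusted p under 0.05 (17.4% of the list, against 16.9% of all genes). Without the transplanted tumour, Ift80 was called. Both GFD-Ptch arrays lay under all 4 NG-Ptch arrays for 12 genes (26.1%, against 14.0% of all genes) and above them for 4 (8.70%, against 20.6%). Both GFD-Ptch arrays carry the gender label M, while the NG-Ptch arrays are labelled F (1 array) or ND (3 arrays), so subtype and gender label cannot be told apart within these 2 groups. A model of all arrays that held the gender label, with F, M and ND as separate levels, gave a median of -0.21. This term is thus not an adjustment for sex alone. The median was -0.18 without GFD-Ptch replicate 1 and -0.02 without replicate 2. It was -0.01 after quantile normalization of the deposited values, with 26 of 46 genes below 0.

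The change from NG to GFD was compared between the models as a difference of the 2 changes. This difference was above 0 for 35 of 46 genes and below 0 for 11, with a median of 0.22 beside -0.06 over all genes. It was called for 4 genes, each with a higher change in the Smo tumours: Ift74, Ift80, Bbs7 and Tmem216 (8.70% of the list, against 3.81% of all genes, of which 2.40% were higher and 1.40% lower). At an unadjusted p under 0.05 there were 13 genes (28.3%, against 20.1%). The number fell to 0 without GFD-Ptch replicate 2 and to 1 without GFD-Ptch replicate 1. It was 2 without NG-Ptch replicate 1, 2 or 5 or without any single GFD-Smo array. With all arrays, 13 genes had an unadjusted p under 0.05 (28.3%, against 20.1%). Lower in GFD-Ptch and higher in GFD-Smo than in the NG tumours of the same model were 28 genes (60.9%, against 22.9% of all genes), and 4 genes showed the opposite (8.70%, against 34.9%). The first number was 21 (45.7%) after quantile normalization and 21 (45.7%) after centring each array on its median. The share of all genes was not counted under these 2 scalings.

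**Figure D2:**
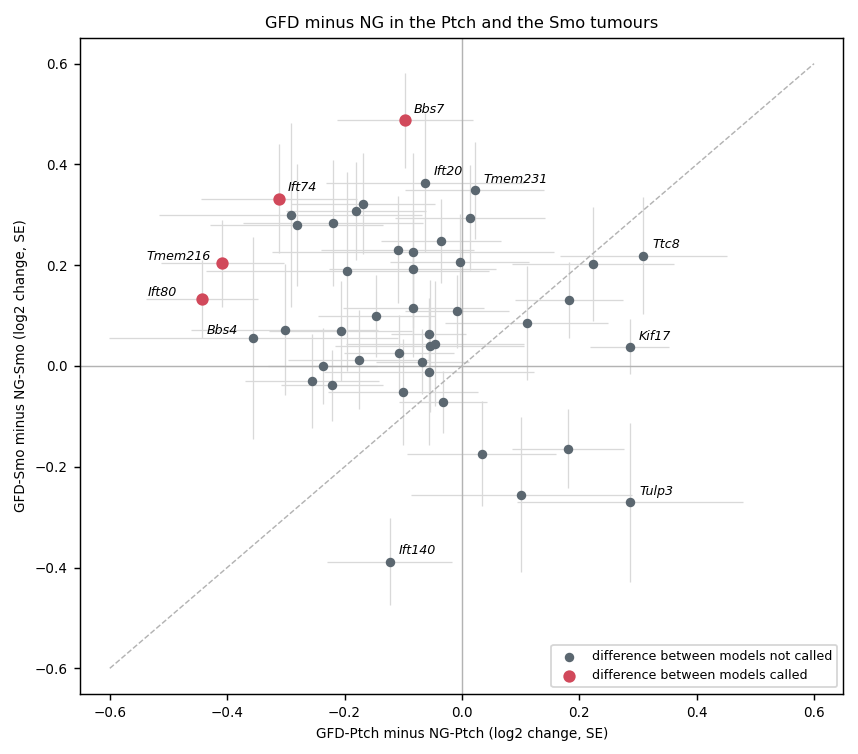
Log2 change from NG to GFD in the Ptch tumours (horizontal axis) and in the Smo tumours (vertical axis) for the 46 cilium genes, with standard errors. Red points are the 4 genes whose 2 changes differed in the limma model, and the dashed line marks equal changes. The upper left region, lower in GFD-Ptch and higher in GFD-Smo, holds 28 genes.

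GFD tumours of the 2 models differed most, as all genes did. In GFD-Smo minus GFD-Ptch, 7 genes were called (15.2% of the list, against 15.6% of all genes), 5 higher in GFD-Smo (against 8.50% of all genes) and 2 lower (against 7.10%). At an unadjusted p under 0.05 there were 20 (43.5%, against 33.3%). The groups did not overlap for 20 genes higher in GFD-Smo (43.5%, against 23.4%) and for 7 lower (15.2%, against 33.7%). Of all genes, 57.1% had groups apart. The number of called cilium genes changed when single arrays were left out. The number was 4 without GFD-Ptch replicate 2, 13 without the transplanted tumour and 11 without NG-Smo replicate 1. The median of the 46 genes was 0.06 beside -0.06 over all genes, but it was -0.005 after quantile normalization and -0.03 after median centring, where all genes lay at -0.03 and -0.15. Leaving out GFD-Ptch replicate 1 gave 0.14, and replicate 2 gave 0.03. Among NG tumours, 1 gene was called in NG-Smo minus NG-Ptch (2.17%, against 1.04% of all genes and 0.436% called lower), and 14 genes were above 0 and 32 below, with a median of -0.06. Groups were apart for 1 gene higher in NG-Smo, Cep164 (2.17%, against 2.97%), and for 2 lower, Bbs7 and Inpp5e (4.35%, against 2.68%), beside 5.65% of all genes either way.

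Among the IFT-B genes, which code for the outward train, all 9 were higher in GFD-Smo than in NG-Smo, against 46.1% of all genes. Their median was 0.13, beside -0.01 over all genes. In the Ptch tumours all 9 were lower in GFD than in NG, against 41.9% of all genes. The median there was -0.11, beside 0.04 over all genes. None of these 18 changes was called. The array median of the 9 genes was -0.08 on GFD-Ptch replicate 1, within the -0.10 to 0.15 of NG-Ptch, and -0.30 on replicate 2. After quantile normalization 7 of the 9 were lower in GFD-Ptch and 9 of 9 higher in GFD-Smo, and after median centring 9 and 8. In GFD-Smo minus GFD-Ptch 8 of 9 were above 0 and Ift80 and Ift74 rose; 7 of 9 were above 0 after either scaling.

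Ift80, an IFT-B subunit mutated in a skeletal ciliopathy, was 9.57, 9.61, 9.33 and 9.31 in NG-Ptch and 9.12 and 8.91 in GFD-Ptch. It was 9.40, 9.46, 9.52 and 9.32 in GFI-Ptch. In NG-Smo it was 9.57, 9.59, 9.49 and 9.38, and in GFD-Smo 9.69, 9.58, 9.70 and 9.60. Both GFD-Ptch arrays were lower than the other 16, while GFD-Smo and NG-Smo overlapped. Ift80 was 0.63 higher in GFD-Smo than in GFD-Ptch (SE 0.09, limma adjusted p = 0.000479), a call that all 28 other settings kept. Its change from NG to GFD was -0.44 in the Ptch tumours (SE 0.09, adjusted p = 0.0983) and 0.13 in the Smo tumours. The difference of the 2 changes was 0.58 (SE 0.12, adjusted p = 0.0174), and the adjusted p was 0.139 without GFD-Ptch replicate 2 and 0.0564 with the gender label in the model.

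Ift74, an IFT-B subunit that binds tubulin together with Ift81, was 8.18, 8.50, 8.14 and 8.15 in NG-Ptch and 8.00 and 7.87 in GFD-Ptch. In GFI-Ptch it was 8.19, 8.18, 8.24 and 8.57. It was 8.39, 8.23, 8.30 and 7.95 in NG-Smo and 8.50, 8.60, 8.65 and 8.44 in GFD-Smo. All 4 GFD-Smo arrays were above all NG-Smo and GFD-Ptch arrays. Ift74 rose by 0.62 in GFD-Smo against GFD-Ptch (SE 0.13, adjusted p = 0.00583), but the adjusted p was 0.0909 without GFD-Ptch replicate 2. Against NG-Smo the change was 0.33 (adjusted p = 0.0993). The difference between the models was 0.64 (SE 0.17, adjusted p = 0.048) and was called in 7 of 28 other settings, and not with the gender label in the model (adjusted p = 0.0581). Leaving out any array but 2 ended the call, with adjusted p of 0.0525 to 0.24. The exceptions were the transplanted tumour and NG-Smo replicate 1.

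The IFT-A genes, for the return train, did not move as 1 group. Ift140 and Ift122 had lower values in GFD-Smo than in NG-Smo, whereas Wdr19 and Wdr35, which encode 2 further subunits of the same complex, had higher ones. Ift140 was 9.86, 9.80, 9.93 and 9.83 in NG-Ptch, 9.76 and 9.70 in GFD-Ptch and 9.84, 9.71, 10.06 and 10.01 in GFI-Ptch. It was 9.65, 9.81, 9.99 and 9.79 in NG-Smo and 9.29, 9.54, 9.32 and 9.54 in GFD-Smo. All 4 GFD-Smo arrays were lower than every other array. Ift140 fell by 0.39 against NG-Smo (SE 0.09, adjusted p = 0.0155), with an adjusted p of 0.0589 without GFD-Smo replicate 1 and 0.0573 without replicate 3. Against GFD-Ptch its change was -0.31 (adjusted p = 0.0587).

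Ift122 was 9.74, 9.86, 10.02 and 9.53 in NG-Ptch, 10.22 and 9.55 in GFD-Ptch and 9.59, 9.54, 9.94 and 10.03 in GFI-Ptch. It was 9.61, 9.14, 9.39 and 9.61 in NG-Smo and 9.09, 9.25, 9.18 and 9.21 in GFD-Smo. The 2 GFD-Ptch arrays were far apart, and the GFD-Smo arrays lay under both. Ift122 fell by 0.71 in GFD-Smo against GFD-Ptch (SE 0.19, adjusted p = 0.0208). Without GFD-Ptch replicate 1, the higher of that pair, the change was -0.37 (adjusted p = 0.249), and with gender label as a term the adjusted p was 0.0927.

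None of the 7 motor genes was called in any comparison. They were Kif3a, Kif3b and Kifap3 (the kinesin-2 motor), Kif17 (a second ciliary kinesin), Kif7 (a kinesin of the ciliary tip that organises Gli proteins), and Dync2h1 and Dync2li1 (dynein 2). Kif17 had the highest change of a motor in GFD-Ptch minus NG-Ptch, 0.29 (SE 0.07, adjusted p = 0.118). It was 7.11 and 7.25 in GFD-Ptch and 6.79, 6.82, 6.97 and 6.99 in NG-Ptch, so the groups were apart, at values near the lower quartile of all genes. Dync2li1 was 0.60 higher in GFD-Smo than in GFD-Ptch (SE 0.22, adjusted p = 0.0781).

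Among the 7 BBSome genes, Bbs7 alone was called. Bbs7 is a core subunit of the BBSome, and its loss causes Bardet-Biedl syndrome. It was 8.83, 9.04, 8.50 and 8.91 in NG-Smo and 9.25, 9.36, 9.41 and 9.21 in GFD-Smo. In NG-Ptch it was 9.49, 9.55, 9.38 and 9.55, in GFD-Ptch 9.36 and 9.43, and in GFI-Ptch 9.62, 9.50, 9.58 and 9.38. Every NG-Smo array was below every array of the other 4 groups.

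Bbs7 fell by 0.67 in NG-Smo against NG-Ptch (SE 0.09, adjusted p = 0.0029) and rose by 0.49 in GFD-Smo against NG-Smo (SE 0.09, adjusted p = 0.00606). The second call held in all 28 other settings. The first was lost in a fit of the 2 groups alone (adjusted p = 0.0735). The change from NG to GFD was 0.58 greater in the Smo than in the Ptch tumours (SE 0.15, adjusted p = 0.0416), a call kept in 13 of 28 settings and lost among others with the gender label in the model (adjusted p = 0.0593). Arrays whose removal ended it were NG-Ptch 1, 2 and 5, both of GFD-Ptch, NG-Smo 1 and all 4 of GFD-Smo, with adjusted p of 0.0506 to 0.133. Bbs4 had the second widest range of the list, 1.18, and within NG-Smo alone it ran from 8.31 to 9.40.

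The promoter of Bbs7 holds an X-box, the sequence that RFX transcription factors bind in many cilium genes. RefSeq promoters (build GRCm38.p6) were found for 41 of the 46 genes, and the 250 bases before each start were searched on both strands. The X-box was taken as GTTNCC and GGNAAC with 1 to 3 bases between them, and the half-site as GTTGCC, which can lie inside an X-box. An X-box was found in 3 genes, Bbs7, Ift57 and Mks1 (7.32% of 41, against 0.766% of 27025 genes with a promoter), and a half-site in 9 (22.0%, against 11.8%). The 3 X-boxes are printed with their surroundings, with the motif in capitals, followed by the half-sites of Ift140 and Tmem231, the other 2 genes called between the Smo groups. They lie at chr3:36613467-36613540 (minus strand), chr16:49699204-49699276 (plus), chr11:87853161-87853214 (plus), chr17:25015947-25016012 (plus) and chr8:111933882-111933947 (minus).
Bbs7: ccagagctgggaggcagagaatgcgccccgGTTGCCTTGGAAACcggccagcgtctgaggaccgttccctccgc
Ift57: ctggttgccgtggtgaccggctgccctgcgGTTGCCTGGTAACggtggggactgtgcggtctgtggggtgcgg
Mks1: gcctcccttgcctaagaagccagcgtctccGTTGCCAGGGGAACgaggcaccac
Ift140: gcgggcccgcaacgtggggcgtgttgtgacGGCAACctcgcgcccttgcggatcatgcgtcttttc
Tmem231: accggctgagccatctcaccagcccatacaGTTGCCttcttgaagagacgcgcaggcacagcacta

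A match is a run of letters and was not tested as a binding site. In GFD-Smo minus NG-Smo all 3 genes with an X-box had values above 0, as did 35 of the 46 genes. Bbs7 rose, and the changes of Ift57, 0.07 (adjusted p = 0.89), and Mks1, 0.13 (adjusted p = 0.456), were not called. Differences among the 3 were not tested. Of the RFX genes, Rfx4 rose by 0.87 in GFD-Smo against NG-Smo (SE 0.14, adjusted p = 0.00164) and by 1.10 against GFD-Ptch (adjusted p = 0.000707). It was 7.77 to 8.15 in GFD-Smo and 6.74 to 7.51 on all other arrays. Rfx3 changed by -0.06 between the Smo groups (adjusted p = 0.901). Rfx7 fell by 0.33 against NG-Smo (SE 0.08, adjusted p = 0.03) and by 0.35 against GFD-Ptch (adjusted p = 0.032). Foxj1, the master regulator of motile cilia, was 6.69 to 7.20 on every array and was called in no comparison.

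Of the small GTPase and lipid phosphatase genes, neither was called. Arl3, a GTPase that releases lipidated cargo in the cilium, had a range of 0.30 over all arrays. Inpp5e, the phosphatase that sets the lipid composition of the ciliary membrane, was 9.28, 9.31, 9.36 and 9.24 in NG-Ptch and 8.85 to 9.23 on the other 14 arrays. NG-Ptch was thus above all other arrays, with changes of -0.24 in GFD-Ptch (adjusted p = 0.248), -0.17 in GFI-Ptch (0.549) and -0.24 in NG-Smo (0.187).

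In the list, 4 genes regulate the Hedgehog signal at the cilium. Tulp3 carries receptors into the cilium with IFT-A, Gpr161 is a receptor that keeps the pathway off, and Evc and Evc2 relay the signal of active Smo. Tulp3 was 9.73, 9.80, 10.29 and 9.76 in NG-Ptch, 10.40 and 9.96 in GFD-Ptch and 9.70, 9.98, 9.98 and 10.43 in GFI-Ptch. In NG-Smo it was 9.64, 9.94, 9.57 and 9.47, and in GFD-Smo 9.29, 9.39, 9.34 and 9.52. All GFD-Smo arrays were under all Ptch arrays. Tulp3 fell by 0.80 in GFD-Smo against GFD-Ptch (SE 0.19, adjusted p = 0.012), and by 0.57 without GFD-Ptch replicate 1, where it was not called (adjusted p = 0.133). Adding the gender label as a term gave an adjusted p of 0.0513.

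Gpr161 was 8.64, 8.74, 8.75 and 8.79 in NG-Ptch and 8.33, 8.37, 8.55 and 8.51 in GFI-Ptch, the only group apart from NG-Ptch. Its change of -0.29 (SE 0.07) had an adjusted p of 0.177 and was called with array weights alone (adjusted p = 0.0295). Evc and Evc2, whose proteins form 1 complex, were called in no comparison.

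At the transition zone, 9 of 10 genes were higher in GFD-Smo than in NG-Smo and 9 of 10 higher in GFD-Smo than in GFD-Ptch. After quantile normalization these numbers were 9 and 6, and after median centring 8 and 6. Tmem231 rose in the first comparison, and Tmem216, B9d1 and Tmem67 rose in the second. These 4 genes code for members of the MKS module, the membrane-linked part of the gate.

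Tmem216 was 8.90, 8.89, 8.85 and 8.75 in NG-Ptch and 8.48 and 8.40 in GFD-Ptch. It was 8.72, 8.67, 8.76 and 8.92 in GFI-Ptch. The Smo tumours had 8.93, 9.08, 8.82 and 8.64 in NG-Smo and 9.03, 9.03, 9.25 and 8.97 in GFD-Smo. Both GFD-Ptch arrays were below all 16 others. Tmem216 rose by 0.63 in GFD-Smo against GFD-Ptch (SE 0.11, adjusted p = 0.00106), in all 28 other settings too. Its change from NG to GFD was -0.41 in the Ptch tumours (adjusted p = 0.137) and 0.20 in the Smo tumours (0.237), and the 2 differed by 0.61 (SE 0.14, adjusted p = 0.0221). That adjusted p was 0.0588 without GFD-Ptch replicate 1 and 0.121 without replicate 2.

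B9d1 was 8.98, 9.17, 9.33 and 9.04 in NG-Ptch, 9.09 and 8.83 in GFD-Ptch and 8.73, 8.90, 8.89 and 9.09 in GFI-Ptch. It was 9.15, 9.22, 9.06 and 9.11 in NG-Smo and 9.46, 9.41, 9.69 and 9.27 in GFD-Smo. The GFD-Smo arrays were above all NG-Smo and GFD-Ptch arrays. B9d1 rose by 0.50 in GFD-Smo against GFD-Ptch (SE 0.12, adjusted p = 0.0133), and by 0.36 without GFD-Ptch replicate 2 (adjusted p = 0.22). Against NG-Smo it differed by 0.32 (adjusted p = 0.0811).

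Tmem67, a receptor-like protein of the transition zone, was 9.43, 9.41, 9.54 and 9.29 in GFD-Smo and 9.13 and 8.92 in GFD-Ptch. The other groups ran from 9.09 to 9.32 in NG-Ptch, 9.17 to 9.48 in GFI-Ptch and 8.97 to 9.41 in NG-Smo. Only GFD-Ptch was wholly below GFD-Smo and the change was 0.39 (SE 0.12, adjusted p = 0.0389). The call was kept in 20 of 28 settings. Arrays whose removal ended it were GFD-Ptch 1 (adjusted p = 0.0588) and 2 (0.362) and GFD-Smo 1 (0.0693), 2 (0.067) and 3 (0.09).

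Tmem231 was 9.35, 9.08, 9.20 and 9.02 in NG-Smo and 9.42, 9.50, 9.53 and 9.60 in GFD-Smo, with no overlap. In NG-Ptch it was 9.40, 9.34, 9.72 and 9.32, in GFD-Ptch 9.55 and 9.39, and in GFI-Ptch 9.18, 9.50, 9.47 and 9.41. Its rise of 0.35 in GFD-Smo (SE 0.10, adjusted p = 0.0491) lay at the threshold and was called in 10 of 28 other settings, where the adjusted p ran from 0.0217 to 0.13. Leaving out any one Smo array other than NG-Smo replicate 1 ended the call, as did leaving out NG-Ptch replicate 1, 2 or 5, either GFD-Ptch array or GFI-Ptch replicate 2 or 3.

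**Figure D3:**
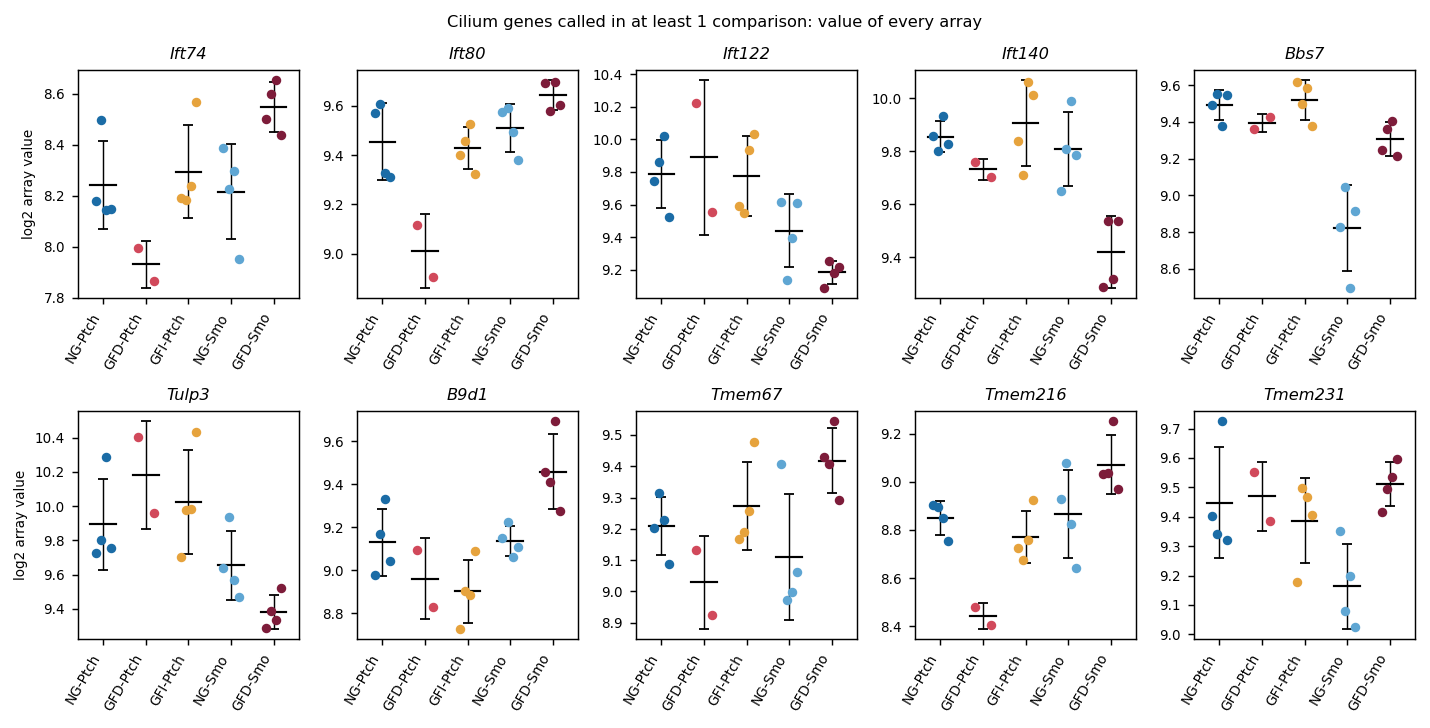
Log2 value of every array for the 10 cilium genes called in at least 1 comparison, by group (NG-Ptch, GFI-Ptch, NG-Smo and GFD-Smo n = 4, GFD-Ptch n = 2). Points are arrays, the long bar is the group mean and the whiskers are 1 SD. Axes differ between genes and do not start at 0. Bbs7 is low in NG-Smo alone, and Ift80 and Tmem216 are low in GFD-Ptch.

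The basal body genes Ofd1, Cep164 and Talpid3 (2700049A03Rik), needed to dock the basal body and start the cilium, were called in no comparison. All 3 were lower in GFD-Smo than in NG-Smo, with changes from -0.17 to -0.05, and lower than in GFD-Ptch, with changes from -0.29 to -0.11.

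The GFI tumours were close to the NG tumours in these genes. In GFI-Ptch minus NG-Ptch no cilium gene was called, and limma called 0% of all genes. At an unadjusted p under 0.05 there were 7 of 46, which is 15.2% of the list beside 8.53% of all genes. Genes above and below 0 were 25 and 21, with a median of 0.01, or -0.01 without the transplanted tumour. Groups without overlap were seen for 4 genes, beside 4.86% of all genes. Ift52 and Ofd1 were higher in GFI-Ptch (4.35%, against 2.05% of all genes), and Inpp5e and Gpr161 were lower (4.35%, against 2.80%).

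In GFI-Ptch minus GFD-Ptch none was called either (against 0.00502% of all genes). There 32 genes were above 0 (69.6%, against 43.2% of all genes), with a median of 0.08 beside -0.02 over all genes. At an unadjusted p under 0.05 there were 7 genes (15.2%, against 9.79% of all genes). The groups were apart for 11 genes higher in GFI-Ptch (23.9%, against 6.98%) and for Kif17, which was lower (2.17%, against 9.48%). Ift52 differed by 0.50 (SE 0.24, adjusted p = 0.518), but by 0.21 without the transplanted tumour. Ift80 differed by 0.42 (SE 0.09, adjusted p = 0.211), and by 0.45 without that tumour. The 3 comparisons among the Ptch groups share arrays and are not independent of each other. Without GFD-Ptch replicate 1 the median was 0.16, and without replicate 2 it was 0.03.

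The transplanted tumour held the highest value of 14 of the 46 genes (30.4%, against 13.2% of all genes) and the lowest of 1, Cc2d2a (2.17%, against 14.8%). Ift52, an IFT-B subunit at the heart of the train, was 11.02 there. It was 9.78, 9.96 and 9.89 in the other GFI-Ptch arrays and 9.35 to 9.96 on all 17 other arrays, so the transplanted tumour exceeded their mean in its group by 1.15. Dync2li1 was 9.04 there and 7.93, 8.22 and 8.30 in the other GFI-Ptch arrays. The median difference of the 46 genes from the other GFI-Ptch arrays was 0.15, beside -0.05 over all genes. These are values of 1 tumour with no test. Markers of developing muscle moved with them. Of 9 such genes, 8 were highest in the transplanted tumour, and their mean log2 value was 10.27 there, 7.17 to 7.32 in the other GFI-Ptch arrays and at most 8.12 on any other array. Myh3, an embryonic myosin, was 10.77 there and at most 6.84 elsewhere. The mean of the 9 astrocyte markers was 8.62, the lowest of all arrays, and that of 9 granule neuron progenitor markers was 11.61, against 11.63 to 12.19 on the other arrays. The part of these cells in the cilium values was not tested.

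Genes next to Ift52 were read in the order of RefSeq GRCm38.p6, 10 on each side. This look at the neighbours was chosen after the value of Ift52 was seen. Of the 20 neighbours, 6 exceeded the other GFI-Ptch arrays by more than 0.5, against 8.14% of all genes. These were Srsf6 (0.64), Mybl2 (0.89), Oser1 (1.30), Gdap1l1 (0.91), Fitm2 (0.97) and R3hdml (0.95), and each was higher in the transplanted tumour than on every other array. Of the 20, 16 were above the lower quartile on all arrays, and Tox2 and Jph2, which lie between Mybl2 and Oser1, differed by -0.13 and -0.16. Around Ift140, which itself differed by 0.14, 6 of 20 neighbours passed 0.5, and around Dync2li1 5 of 20 did. Around every other gene of the list the number was 0 to 4. Bbs4, which differed by 0.74, had 2 such neighbours, and Rpgrip1l, which differed by 0.60, had 0. The median difference of the 20 neighbours of Ift52 was 0.02, beside -0.05 over all genes. DNA copy number was not measured and was not tested.

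**Figure D4:**
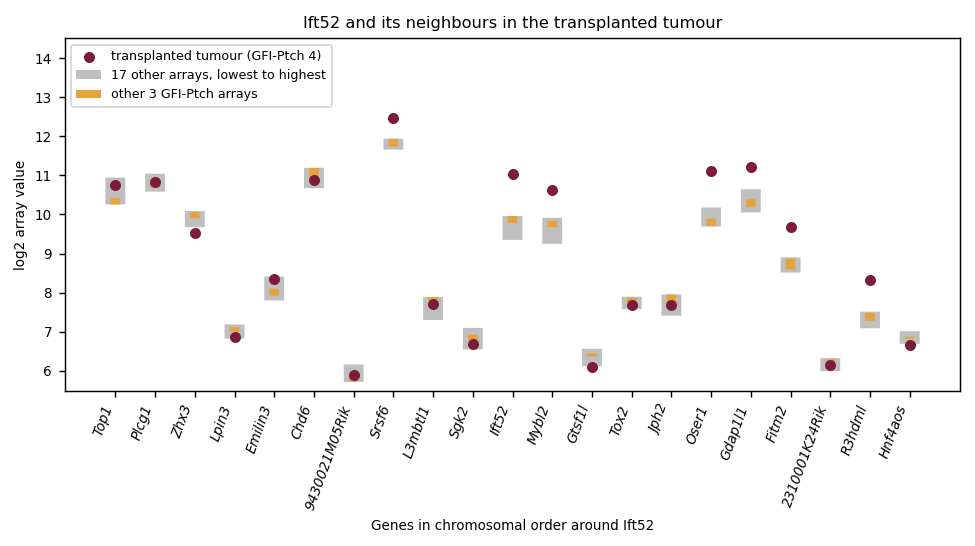
Log2 array values of Ift52 and 10 neighbours on each side in chromosomal order (horizontal axis). Dark red points are the transplanted tumour, orange bars the range of the other 3 GFI-Ptch arrays and grey bars the range of all 17 other arrays. Ift52 and 6 neighbours that exceed the other GFI-Ptch arrays by more than 0.5, among them Oser1 and Mybl2, lie above the grey bars.

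A second list of 47 further cilium genes, 43 of them measured, was read beside the 46. In GFD-Smo minus NG-Smo 4 were called (9.30%, against 5.31% of all genes). Ift46 (0.46) and Wdr60 (0.34) rose, and Cilk1 (-0.31) and Ttc21b (-0.34) fell. Ift46 belongs to IFT-B, Wdr60 to dynein 2, Ttc21b to IFT-A, and Cilk1 is a kinase that limits cilium length. With Ift140, 2 IFT-A genes thus fell in this comparison. Between the GFD groups 6 rose in GFD-Smo and 1 fell, Ttc21b (-0.36), which is 16.3% of the 43 beside 15.6% of all genes, a share near the background. The largest rises were Lztfl1 (0.83), which controls BBSome entry, and Ttc30a1 (0.73), an IFT-B gene. In GFD-Ptch minus NG-Ptch 14 of the 43 were above 0 and 29 below, with none called. The difference between the models was called for 2 (4.65%, against 3.81% of all genes), Tmem237, which was higher, and Ttc21b, which was lower.

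Of 11 measured genes of the Hedgehog pathway list, 8 were above 0 in GFD-Smo minus NG-Smo, 3 in NG-Smo minus NG-Ptch and 7 in the difference between the models. Gli3 (1.83) and Hhip (1.14) rose in GFD-Smo against NG-Smo, and Gli3 was under the lower quartile on 3 arrays. Ptch1 was 1.30 higher in GFD-Smo than in GFD-Ptch (adjusted p = 0.00549), and Gli1 and Smo were called in no comparison. The gap in Ptch1 was not particular to GFD. Ptch1 was 12.25 to 12.88 on every Smo array and 10.62 to 12.14 on every Ptch array. In NG-Smo minus NG-Ptch it was 0.97 higher, which was not called. GFD-Smo (12.61 to 12.88) and NG-Smo (12.25 to 12.75) overlapped. Sufu fell by 0.59 in NG-Smo against NG-Ptch (adjusted p = 0.0307). Of 8 measured genes of cilium disassembly none was called in any comparison.

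Cell type markers also differed in these comparisons, and not all lists moved in the direction of the cilium genes. Of 9 astrocyte markers, 9 were higher in GFD-Smo than in NG-Smo with 5 called (median 1.27), and in the Ptch tumours 9 were lower in GFD than in NG with none called (median -1.02). The difference between the models was called for 7 of 9. The mean log2 value of the 9 was 11.19 to 11.28 in GFD-Smo, 9.83 to 10.14 in NG-Smo, 9.95 to 10.03 in NG-Ptch, 8.91 to 9.05 in GFD-Ptch and 8.62 to 10.50 in GFI-Ptch, and none of them was under the lower quartile on any array. Their part in the changes of the cilium genes was not tested. Of 9 microglia and macrophage markers, 9 were higher in NG-Smo than in NG-Ptch with 3 called, and 2 were called lower in GFD-Smo than in NG-Smo. Their mean was 9.70 to 9.75 in NG-Smo, 9.30 to 9.48 in GFD-Smo, 9.07 to 9.57 in NG-Ptch, 8.67 to 9.02 in GFD-Ptch and 8.93 to 9.66 in GFI-Ptch. Their part in the low Bbs7 of NG-Smo was not tested. Of the 9, 2 were above 0 in GFD-Smo minus NG-Smo and 0 in GFD-Ptch minus NG-Ptch. In these 2 comparisons 7 and 7 of 7 endothelial markers were above 0, beside 46.1% and 58.1% of all genes. For 9 markers of differentiated granule neurons the numbers were 3 and 7, and for 9 of granule neuron progenitors 5 and 4. Of 20 genes of motile cilia, ependyma and choroid plexus, 1 was called between the Smo groups, Clic6, which rose by 1.82, and 3 of the 20 were under the lower quartile on all arrays.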

How the data were processed

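RNA extracted with Trizol was copied into biotin-labelled cDNA, per the labels' protocols. The deposited values are on the log2 scale, and the authors used Partek 6.6, per the submitters' processing notes. Background correction, probe summary and scaling between arrays are not given in the sources used here. The log2 base was read from the range of the values. From 35556 probe sets, those with 1 gene symbol were kept and the one with the highest mean stood for a gene, which left 19938 genes. No filter was applied and no value changed. For arrays, their number limits the precision.

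limma 3.58.1 in R 4.3.3 fitted 5 group means on 18 arrays, and two-sided moderated tests of 7 contrasts had p-values adjusted (Benjamini-Hochberg) across all genes. The script was tested on simulated data. Medians and counts over the list carry no test. Every member could be named, with values of each array for called members and the 3 largest changes in each direction. Of other lists, up to 4 genes with the largest change could be named, besides Ptch1, Smo, Gli1, Foxj1, Rfx3 and Rfx4. Neighbours, Atoh1, the marker lists and the further genes with an X-box were added to these. Sufu, Rfx7, Ttc21b and Cilk1 are named because few genes of their list were called. Promoters and gene order come from RefSeq GRCm38.p6, searched with Python 3.11.15. Members and lists were chosen with earlier results of these data known. Other settings were quantile normalization, median centring, dim genes left out, the mean of all probe sets, a fit of the compared groups alone, the gender label, the replicate number as a block, array weights, a trended robust prior and leaving out each array. The gender label was fitted with F, M and ND as separate levels. Leaving out the transplanted tumour together with NG-Smo replicate 4 was chosen after seeing the data.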

Additional observations from a re-analysis of the deposited data

Results flagged for a closer look

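Dixon's gap test at the 95% level was run with all arrays for 23 genes, and not for the whole list. Each gene named in this paragraph was called or had 1 of the 3 largest changes in a direction. Such genes were picked on the same values, so the number found cannot be set against the 1 in 20 of chance. Of 96 tests of a group of 4 arrays, 10 found a highest or lowest array far from the other 3. In the transplanted tumour, GFI-Ptch replicate 4, these were the highest values of Ift52 (11.02), Ofd1 (9.0), Tctn2 (8.83) and Ift74 (8.57). In GFI-Ptch replicate 3 it was the lowest value of Kif17 (6.89). In NG-Ptch they were the highest values of Tulp3 (10.29, replicate 4) and Ift74 (8.50, replicate 2). In NG-Smo replicate 2, Ttc8 was lowest (9.61) and Ift20 highest (11.37), and in GFD-Smo replicate 4 Dync2li1 was lowest (8.57).

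The change from NG to GFD differed between the Smo and the Ptch tumours for 4 genes in limma's interaction term. The differences were 0.64 for Ift74, 0.61 for Tmem216, 0.58 for Bbs7 and 0.58 for Ift80. The NG-Ptch, GFD-Ptch, NG-Smo and GFD-Smo arrays showed Bbs7 low in NG-Smo and the other 3 genes low in GFD-Ptch, which has 2 arrays.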

How the results depend on the processing

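Of 28 other settings, none reversed the sign of a called gene. GFD-Ptch minus NG-Ptch had a median of -0.0104 after quantile normalization and -0.21 with the gender label, 1 called gene in the fit of its groups alone, 3 with array weights (Ift80, Tmem216 and Kif17) and the same 3 without the transplanted tumour and NG-Smo replicate 4. Leaving out single arrays gave medians of -0.18 to -0.017 and 0 to 1 calls. GFI-Ptch minus NG-Ptch had a median of 0.01 that turned negative with the gender label (-0.0834), the replicate block (-0.0093), array weights (-0.0187), without the transplanted tumour (-0.0147) and without it and NG-Smo replicate 4 (-0.0147), and 1 call with array weights. GFI-Ptch minus GFD-Ptch had 1 call without both arrays and medians of 0.0344 to 0.16 without single arrays. GFD-Smo minus NG-Smo had 5 calls after quantile normalization and 1 to 8 without single arrays. NG-Smo minus NG-Ptch had 0 calls in the fit of its groups alone and 0 with the replicate block. GFD-Smo minus GFD-Ptch had medians of -0.0046 (quantile), -0.0345 (median centring) and 0.13 (gender label), 21 calls in its groups alone, 18 with array weights and 17 without both arrays. Single arrays left out gave 4 to 13 calls and medians of 0.0271 to 0.14. The difference between models had 2 calls after quantile normalization, 2 with the trended robust prior, 1 with the replicate block and 7 with array weights, and medians of 0.12 (quantile), 0.14 (centring) and 0.33 (gender label). Single arrays left out gave 0 to 6 calls and medians of 0.15 to 0.24. Arrays with the same number did not deviate together (correlations of -0.31 to 0.19 over 29 pairs), so the block shares only a number. Under it 7 calls missed the threshold, those of Bbs7 in NG-Smo minus NG-Ptch (adjusted p = 0.0537), B9d1 in GFD-Smo minus GFD-Ptch (0.0592), Tmem67 (0.084) in the same comparison, Tmem231 in GFD-Smo minus NG-Smo (0.0935), and Tmem216 (0.0527), Bbs7 (0.0851) and Ift74 (0.102) in the difference between models. Lone GFD-Ptch arrays were taken to vary like the other groups.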
